A study of Saccharomyces cerevisiae with 8 samples.

Results

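The 3′ untranslated region (3′ UTR) is the stretch of an mRNA between its stop codon and its poly(A) tail. In caffeine, 128 budding yeast genes had a longer average 3′ UTR by at least 15 nucleotides (nt) in each of 3 treated and untreated pairs of cultures. They were selected on these gains from 3789 genes that had at least 50 counts in each of the 8 libraries and an average 3′ UTR under 400 nt in both untreated wild-type libraries, out of 5933 genes in all. The pairs that chose them were wild type of experiment 1, wild type of experiment 2 and pcf11-dNL. The pcf11-13 pair took no part in the choice of gains, so its values are the ones that can be read against the other genes.

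The 8 cultures were of the W303 background, and in all of them TRP1 had replaced the chromosomal copy of PCF11, so that Pcf11 came only from a LEU2 plasmid. The pcf11-13 cells (MATa) carried an untagged mutant allele, the pcf11-dNL cells (MATalpha) a V5- and MYC-tagged allele that the labels call pcf11-deltaN-link, and the wild-type cells (MATalpha) V5- and MYC-tagged PCF11. Each genotype was grown in rich glucose medium (YPAD), with 20 mM caffeine for 2 h or untreated. Since the treated cultures grew for those 2 h more, time and cell density cannot be told apart from caffeine. Wild type had a caffeine and an untreated library in each of experiments 1 and 2, pcf11-13 had both in experiment 1 only, and pcf11-dNL had both in experiment 2 only. RNA was read by Direct RNA Sequencing, which reads poly(A)+ RNA at its 3′ end without making cDNA.

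Pcf11 is a subunit of cleavage factor IA. This complex, together with the cleavage and polyadenylation factor, cuts the nascent RNA at the poly(A) site, and Pcf11 also binds the C-terminal domain of RNA polymerase II and takes part in termination. Yeast poly(A) sites are loosely defined. UA-rich efficiency elements such as TATATA, A-rich positioning elements such as AATAAA and the U-rich surroundings of the site together set where cleavage happens, and many genes have several sites. A longer 3′ UTR can hold more binding sites for RNA-binding proteins, and between convergent genes it can run into the gene on the opposite strand. Caffeine inhibits the TORC1 kinase in yeast.

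Library totals ran from 1070278 to 4555751 counts. Set against the untreated library of the same pair, the caffeine library held 4.12 times the counts in wild type of experiment 1, 2.70 times in wild type of experiment 2, 4.25 times in pcf11-dNL and 0.872 times in pcf11-13. Depth thus moved with caffeine in the 3 pairs that chose the genes and not in pcf11-13, and its part in the results was not tested. Over the 128 genes and 8 libraries the lowest count was 51.6, and the median over genes of the lowest count was 104. Nothing in the labels says whether the cultures of a group were independent, so the spread behind each p-value may be technical. As a check of the labels, the alpha-factor gene MF(ALPHA)1, which MATalpha cells express, had 14.7 CPM (counts scaled to library size, TMM) with caffeine and 13.5 CPM untreated in pcf11-13, against 129 to 1333 CPM in the other 6 libraries.

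The sequence of the added stretch is shown for 4 of the 10 genes that lengthened most, those in which it held a TATATA efficiency element. The stretch runs from the mean untreated to the mean caffeine length of wild type, counted from the stop codon, and each line gives 30 bases of the coding strand, 5′ to 3′, with the first TATATA in capitals (RefSeq sequence, build R64, which is S288C and not W303).
MRPL27, chrII:768860-768889, plus strand: aaagttcgtacgTATATAaatgcgcgtagc
SOR2, chrIV:8227-8256, minus strand: atatattgctcaTATATAaaactaccgcat
SAM50, chrXIV:583653-583682, plus strand: aagataaatactTATATAtcgcaccatcgt
THP3, chrXVI:654874-654903, minus strand: gttataattaatTATATAgttgttttatga
The TATATA began 192 nt past the stop codon in MRPL27, 439 nt in SOR2, 291 nt in SAM50 and 249 nt in THP3.

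Such an element was not a shared feature of the added stretches. The stretches had a median of 52.5 nt (17 to 384). TATATA, searched on the coding strand, stood in 12 of 128 of them (9.38%), against 8.91% for windows of the same lengths in 3929 genes. AATAAA stood in 10 stretches (7.81%), against 9.65%. The Puf3-type motif TGTANATA stood in 2 (1.56%), against 1.64%. Between the stop codon and the untreated length, TATATA stood in 51 of the 128 genes (39.8%), against 48.7% over windows of the same lengths. In that same window AATAAA stood in 41 genes (32.0%, against 28.3%) and TGTANATA in 24 (18.8%, against 15.4%). A match describes these letters in the reference and no binding site.

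The lengthening that chose the genes was large and ran against the rest of the transcriptome. The median gain was 43.1 nt in wild type of experiment 1, 61.2 nt in wild type of experiment 2 and 53.2 nt in pcf11-dNL. The other 3661 genes past the same limits had medians of -4.21, -4.41 and -7.39 nt in these pairs, so most of them shortened a little. At least 15 nt of lengthening in all 3 pairs was found in 128 of the 3789 genes (3.38%), and at least 15 nt of shortening in all 3 pairs in 478. These values chose the genes and are given as a description. Nearest to the limit on the inside were RRP15, with a smallest gain of 15.4 nt, INA22 with 15.4 nt and CUE3 with 15.5 nt. On the outside the nearest were 3 Ty element reading frames, YPL257W-A, YGR027W-A and YOL103W-A, each listed with the same 14.9 nt, which is what copies that share their reads would give.

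Before caffeine the genes already had longer 3′ UTRs than the other genes. Their median length was 215 nt with caffeine and 164 nt untreated in wild type of experiment 1. It was 243 nt with caffeine and 167 nt untreated in wild type of experiment 2, and 238 and 175 nt in pcf11-dNL. The other genes had medians of 125 nt with caffeine and 135 nt untreated in wild type of experiment 1.

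**Figure D1:**
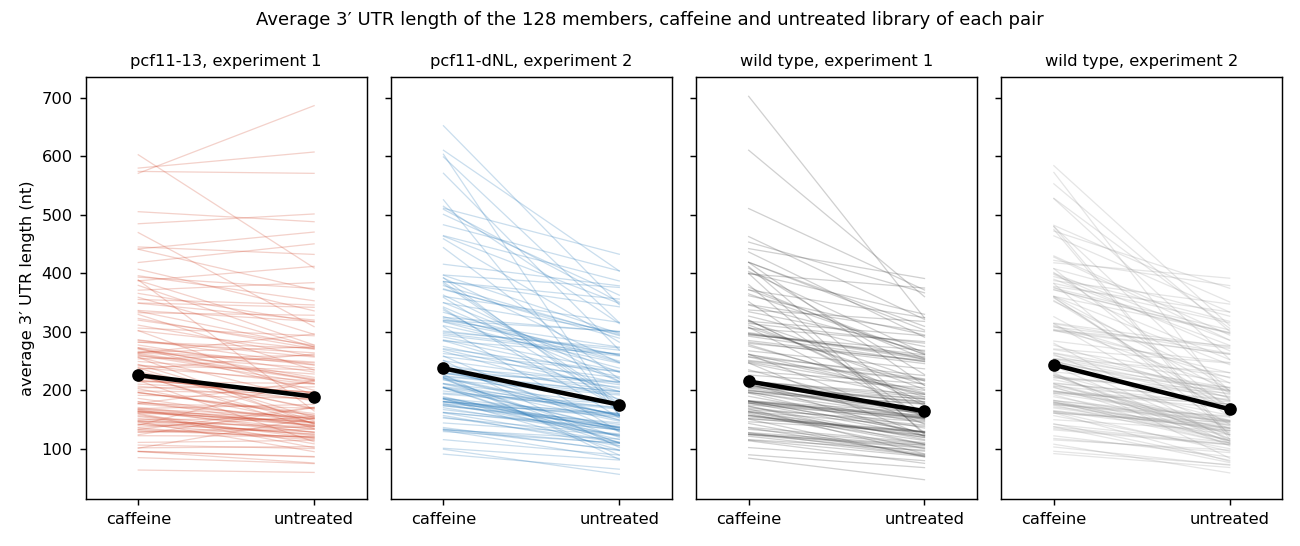
Average 3′ UTR length in nt (y axis) of each of the 128 genes in the caffeine library and the untreated library of the same pair, 1 thin line per gene, with the median as a black line. All lines slope down from caffeine to untreated in the pcf11-dNL and wild-type panels, whose pairs chose the genes; in pcf11-13 the median is 226 nt with caffeine and 189 nt untreated, and 24 lines slope up.

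In pcf11-13 most of the genes also lengthened, but by less. The median gain was 21.4 nt (quartiles 6.23 and 44.2 nt), against 1.17 nt for the other genes. At least 15 nt of lengthening was seen in 77 of 128 genes (60.2%), where 15.1% of all 3789 genes passed that mark. A further 27 genes lengthened by less than 15 nt, 10 shortened by less than 15 nt, and 14 shortened by at least 15 nt (10.9%, where 9.42% of all genes did so). In all, 24 genes were shorter with caffeine (18.8%), where 40.2% of all genes were. At least 50 nt of lengthening was seen in 28 genes (21.9%), against 2.05% of the other genes. The members of the group thus lay above the background in lengthening and near it in shortening by 15 nt or more. The gain was the smallest of the 4 pairs in pcf11-13 for 90 of the 128 genes and the largest for 6. Gains in the 3 other pairs were selected to be large and those in pcf11-13 were not, so that their sizes are given side by side without a test.

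**Figure D2:**
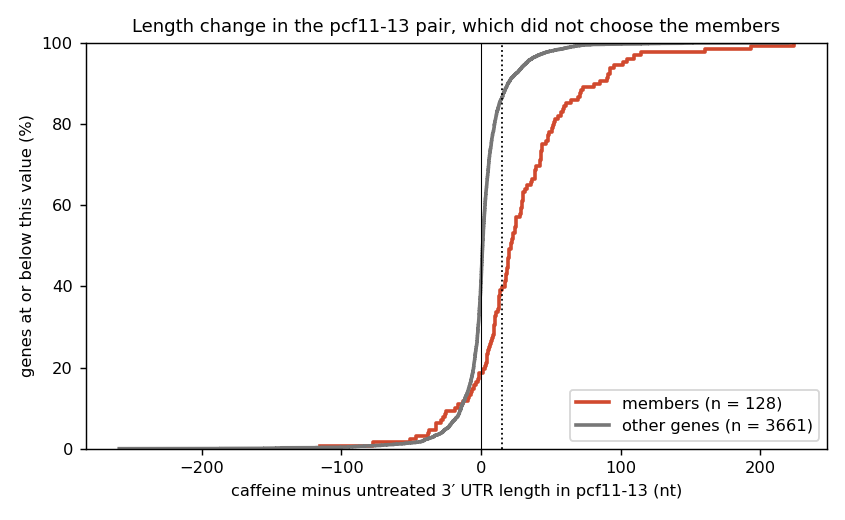
Cumulative share of genes (y axis, %) by the length difference, caffeine minus untreated, in the pcf11-13 pair (x axis, nt), for the 128 genes (red) and the other 3661 genes past the same limits (grey). The dotted line marks 15 nt: 60.2% of the 128 genes lie at or past it, against 13.6% of the other genes.

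Gene by gene, none of these pcf11-13 gains passed the test. In limma over 5165 genes, 0 of the 128 genes had an adjusted p under 0.05 for caffeine in pcf11-13, where 0% of all genes had. The pair has 1 library per medium, so the spread came from the wild-type groups alone. The median standard error (SE) over the 128 genes was 18.3 nt. At an unadjusted p under 0.05 stood 21 genes, 20 of them longer and 1 shorter (16.4% of the 128, where 10.2% of all genes did). The smallest adjusted p was 0.268.

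AEP2 (YMR282C, chromosome XIII, 833356 to 835098, minus strand) was the gene whose smallest gain over the 3 choosing pairs was largest. It also had the largest loss in pcf11-13. Its product is a mitochondrial protein needed to express the mRNA of an ATP synthase subunit. Its 3′ UTR averaged 571 nt with caffeine and 686 nt untreated in pcf11-13. It averaged 652 nt with caffeine and 346 nt untreated in pcf11-dNL, 702 and 324 nt in wild type of experiment 1, and 572 and 182 nt in wild type of experiment 2. Untreated pcf11-13 thus stood in the range of caffeine-treated wild type. The difference of -116 ± 110.1 nt (SE) in pcf11-13 had a limma adjusted p of 0.882. The next gene, GPI12, lies 102 nt downstream on the opposite strand, so that all 8 averages reach into it.

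The mitochondrial ribosomal protein genes MRPS28 and MRPL27 had large gains and were also longer with caffeine in pcf11-13. MRPS28 (YDR337W, chromosome IV, 1146319 to 1147179, plus strand) encodes a protein of the small mitochondrial subunit. It averaged 351 nt with caffeine and 151 nt untreated in wild type of experiment 1, 479.8 and 121 nt in wild type of experiment 2, 603 and 157 nt in pcf11-dNL, and 388 and 165 nt in pcf11-13. The lengths with and without caffeine did not overlap over the 8 libraries, and the pcf11-13 gain of 224 ± 75.8 nt (SE, limma adjusted p = 0.516) was the largest among the 128 genes. The gains outside pcf11-13 chose MRPS28, which favours such a lack of overlap, so that nothing is read from it. MRPL27 (YBR282W, chromosome II, 768240 to 768680, plus strand), of the large subunit, averaged 399.5 and 124 nt (with caffeine, untreated) in wild type of experiment 1 and 382 and 125 nt in wild type of experiment 2. In pcf11-dNL it averaged 525 and 157 nt, and in pcf11-13 388 and 295 nt. Its untreated pcf11-13 value lay above the 3 other untreated libraries and below all 4 caffeine libraries. The gain of 92.1 ± 10.5 nt (SE) there had the smallest limma adjusted p of the group, 0.268.

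SAM50, THP3 and PCP1 differed mainly in where untreated pcf11-13 stood. SAM50 (YNL026W), the core of the machinery that inserts beta-barrel proteins into the mitochondrial outer membrane, averaged 574 nt with caffeine and 571 nt untreated in pcf11-13. In wild type it averaged 409 and 227 nt in experiment 1 and 527 and 253 nt in experiment 2 (with caffeine, untreated), and in pcf11-dNL 571 and 269 nt. Its length in untreated pcf11-13 thus differed by 3.33 nt from that with caffeine in pcf11-13, the longest of the 8. THP3 (YPR045C), which acts in transcription elongation, averaged 365 and 317 nt in pcf11-13, against 320.0 and 174 nt, 353 and 172 nt, and 382 and 177 nt in wild type (experiment 1, then 2) and in pcf11-dNL. PCP1 (YGR101W), the rhomboid protease of the mitochondrial inner membrane, averaged 302 and 192 nt in pcf11-13, against 380.4 and 127 nt, 358 and 164 nt, and 363 and 216 nt in the same 3 pairs. Its untreated value in pcf11-13 was within the range of the other untreated libraries.

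The remaining 4 of the 10 genes whose smallest gain was largest were WSS1, LIF1, SOR2 and PAU6. WSS1 (YHR134W), a protease that cuts proteins crosslinked to DNA, averaged 359 nt with caffeine and 274 nt untreated in pcf11-13, against 418 and 208 nt, 479.6 and 199 nt, and 444 and 219 nt in wild type of experiments 1 and 2 and pcf11-dNL. SOR2 (YDL246C) has a near-identical copy, SOR1, and PAU6 (YNR076W) belongs to the seripauperin family, so that reads may have been shared between copies and both are uncertain. SOR2 averaged 418 and 450.1 nt in pcf11-13, with gains of 250.4, 222 and 206 nt in the other pairs. PAU6 averaged 329.5 and 234 nt in pcf11-13, with gains of 255, 204 and 183 nt in the other pairs.

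LIF1 (YGL090W), the partner of DNA ligase IV in end joining, was the one among these whose length in pcf11-13 lay below all other libraries. It averaged 226 nt with caffeine and 134 nt untreated there, against 463 and 321 nt, 584 and 310.4 nt, and 514 and 314 nt in wild type of experiments 1 and 2 and pcf11-dNL. The gene that converges on it from 206 nt away is MF(ALPHA)2, an alpha-factor gene of MATalpha cells. MF(ALPHA)2 had 26.7 CPM with caffeine and 28.1 CPM untreated in MATa pcf11-13, against 35.1, 24.8 and 32.2 CPM with caffeine and 1016, 2241 and 1342 CPM untreated in wild type of experiments 1 and 2 and pcf11-dNL. Its level was thus low with caffeine, where LIF1 was long, in the 3 MATalpha pairs, and low in both media of pcf11-13, where LIF1 was short. Its part was not tested.

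**Figure D3:**
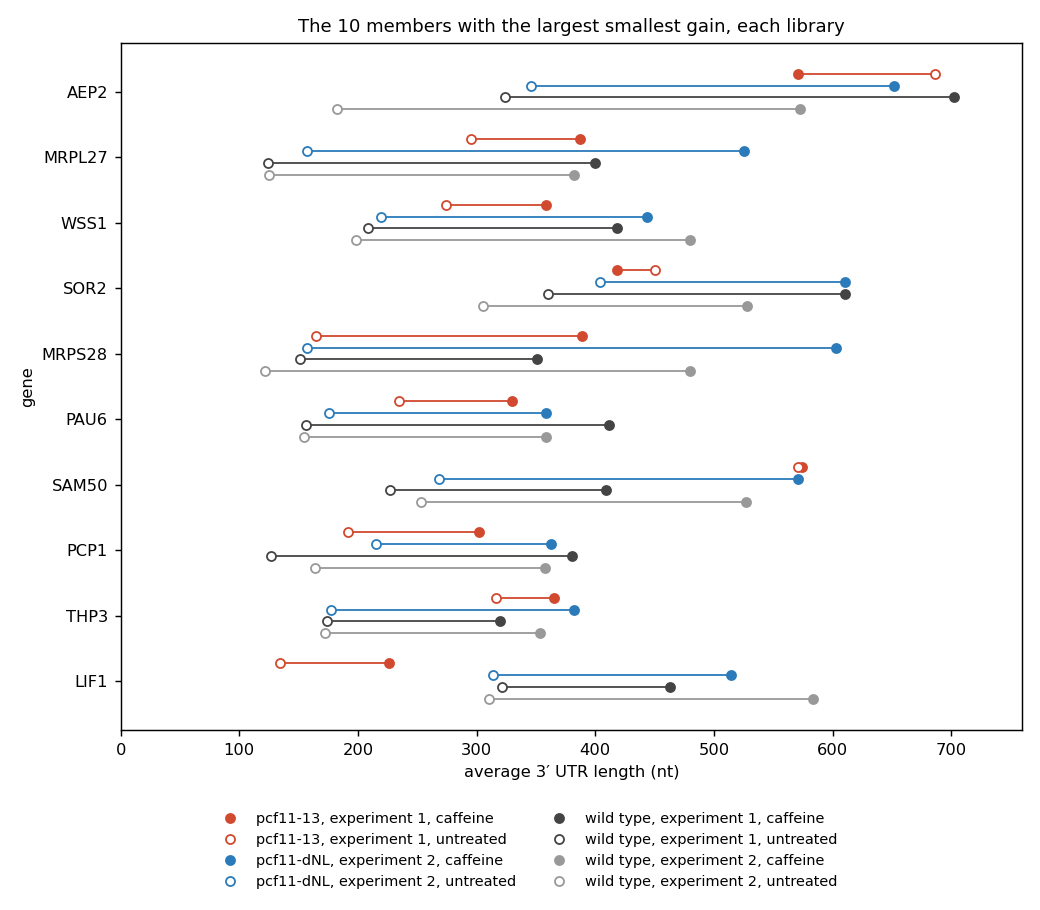
Average 3′ UTR length in nt (x axis) of the 10 genes (y axis) whose smallest gain over the 3 choosing pairs was largest, in each of the 8 libraries. Filled points are caffeine libraries and open points untreated ones, joined within a pair. In the red pcf11-13 pair AEP2 and SOR2 were shorter with caffeine, SAM50 stood at 574 and 571 nt, and LIF1 lay below every other library.

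Large pcf11-13 gains were also seen in genes with smaller gains elsewhere. LOT5 averaged 602 nt with caffeine and 409 nt untreated in pcf11-13, against 442 and 391 nt in wild type of experiment 1. HST2, a cytoplasmic member of the sirtuin deacetylase family, averaged 469 and 309 nt in pcf11-13, against 371 and 324 nt in wild type of experiment 1. YHC1, the yeast U1-C protein of the U1 snRNP, averaged 256 and 142 nt in pcf11-13, against 181 and 128 nt in wild type of experiment 1. Together with MRPS28 and PCP1 these were the 5 largest pcf11-13 gains. The gains of LOT5, HST2 and YHC1 were 193 ± 82.0, 161 ± 39.2 and 114 ± 38.1 nt (SE), with limma adjusted p of 0.608, 0.401 and 0.509.

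By the role of their products, 90 of the 128 genes fell into 6 groups, drawn up after the genes were known, and 38 were put in none. These groups describe who the genes are and carry no test. Counts of genes at least 15 nt longer in pcf11-13 stand beside 60.2% over all 128 genes and 15.1% over all 3789 genes. Gains below are given for wild type of experiments 1 and 2, pcf11-dNL and pcf11-13 in that order. For each group the 3 genes with the largest smallest gain serve as examples. Further genes named in a group were picked outside this rule, after their values were seen, and do not stand for the group.

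Mitochondrial proteins were the most numerous, with 23 genes, of which 16 lengthened by at least 15 nt in pcf11-13, with a median gain of 29.7 nt there. Their median gains in the 3 other pairs were 39.4, 61.2 and 67.6 nt. AEP2, MRPL27 and MRPS28 led them. The group also holds COX6, a subunit of cytochrome c oxidase (103, 114, 77.1 and 60.9 nt), MAS2, a subunit of the protease that removes import sequences (36.7, 39.9, 62.5 and 42.9 nt), and the large-subunit protein genes MRPL6 (67.9, 61.6, 63.2 and 48.2 nt), MRPL10 (34.2, 56.4, 67.6 and 1.08 nt) and MRPL35 (26.0, 67.4, 69.7 and 64.7 nt). MRPS8, of the small subunit, had 27.002, 59.0, 38.0 and -18.4 nt. Symbols beginning MRPL or MRPS were held by 6 of the 128 genes (4.69%), against 36 of the other 3661 (0.98%). The annotation named mitochondria for 27 of the 128 genes (21.1%), against 16.1% of the others. Neither of these classes was among the planned gene lists, so that nothing is read from the differences. Cytosolic ribosomal protein genes gave only RPL14B (0.78%), against 3.66% of the others.

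Genes for RNA helicases and for mRNA export, splicing, decay and translation factors numbered 14, and 7 of them lengthened by at least 15 nt in pcf11-13. THP3 and SUB2 led them, followed by CAF20. SUB2, the DEAD-box ATPase of mRNA export and splicing, averaged 247 nt with caffeine and 122 nt untreated in wild type of experiment 1, 475 and 117 nt in wild type of experiment 2, 392 and 166 nt in pcf11-dNL, and 225 and 144 nt in pcf11-13. The caffeine lengths of SUB2 all lay above the untreated ones, which the choice of the gene by its gains favours. CAF20, an inhibitor that binds the cap-binding factor eIF4E, had gains of 116, 135, 159 and 12.8 nt. The annotation named a DEAD-box helicase for 5 of the 128 genes (3.91%), which were DBP2, DBP5, DHH1, FAL1 and SUB2, against 12 of the others (0.33%). This class was not among the planned gene lists, so that nothing is read from the difference. DHH1, which promotes decapping, had gains of 79.5, 76.4, 84.2 and 53.3 nt. DBP5, the export helicase at the nuclear pore, had gains of 56.3, 30.9 and 47.9 nt in the choosing pairs and a value of -5.22 nt in pcf11-13. FAL1, a nucleolar helicase, gained 38.5, 31.2, 48.0 and 10.2 nt. DBP2 gained 24.8, 38.8, 69.0 and 8.88 nt.

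Transcription factor and chromatin genes were the group with the largest share at least 15 nt longer in pcf11-13, 13 of 15. Their median gain there, 42.8 nt, lay between their medians of 35.9 and 71.2 nt in wild type. STP4, a zinc-finger protein, gained 68.6, 124, 149 and 36.6 nt. NPL6, a subunit of the RSC chromatin remodeller, gained 90.6, 108, 64.1 and 35.8 nt. ARP7, an actin-related subunit of RSC and SWI/SNF, gained 59.3, 113, 85.5 and 9.41 nt. The group includes GLN3, the GATA factor that TORC1 keeps in the cytoplasm (27.4, 71.2, 63.3 and 58.5 nt), MSN4, a stress-response activator (46.5, 71.6, 44.4 and 51.6 nt), and HAA1, an activator of the weak-acid response (54.4, 40.4, 98.9 and 90.9 nt). It also includes 2 subunits of TFIIH, SSL2 and TFB5, with gains in pcf11-13 of 28.7 and 46.3 nt. GLN3 averaged 203 nt with caffeine and 144 nt untreated in pcf11-13, 216 and 188 nt in wild type of experiment 1, and 210.4 and 139 nt in wild type of experiment 2. Its caffeine lengths thus all lay above its untreated ones, which the choice of the gene by its gains favours.

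Of 20 genes for plasma membrane, cell wall and secretory proteins, 10 lengthened by at least 15 nt in pcf11-13. PMA1, the plasma membrane proton pump, behaved alike in all pairs. It averaged 453 nt with caffeine and 366 nt untreated in wild type of experiment 1, 472 and 374 nt in wild type of experiment 2, 464 and 387 nt in pcf11-dNL, and 441 and 371 nt in pcf11-13. No caffeine library of PMA1 overlapped an untreated one, which the choice of the gene by its gains favours. PSA1, which makes GDP-mannose, gained 60.1, 72.6, 68.8 and 52.0 nt. MCD4, an enzyme of GPI anchor synthesis, gained 146, 61.8 and 78.7 nt but had -27.5 nt in pcf11-13, where it averaged 579.6 nt with caffeine and 607 nt untreated, longer than in any other library. OCH1, a Golgi mannosyltransferase, gained 29.9, 31.3, 31.2 and 90.4 nt.

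Genes of DNA repair, replication and the cell cycle (10 genes, 5 at least 15 nt longer in pcf11-13) were led by WSS1, LIF1 and MCM7. MCM7, a subunit of the replicative helicase, averaged 371 nt with caffeine and 384 nt untreated in pcf11-13, against 419 and 309 nt in wild type of experiment 1. Genes of ribosome assembly (8 genes, 4 at least 15 nt longer in pcf11-13) were led by RVB2, NOP9 and RRP9. RVB2, an AAA+ ATPase, gained 152, 127, 187 and 21.4 nt, and NOP9 had 98.7, 172, 119 and -32.4 nt. RRP14 had 18.8, 26.6, 26.8 and 102 nt, and its pcf11-13 gain was the largest of the 4.

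**Figure D4:**
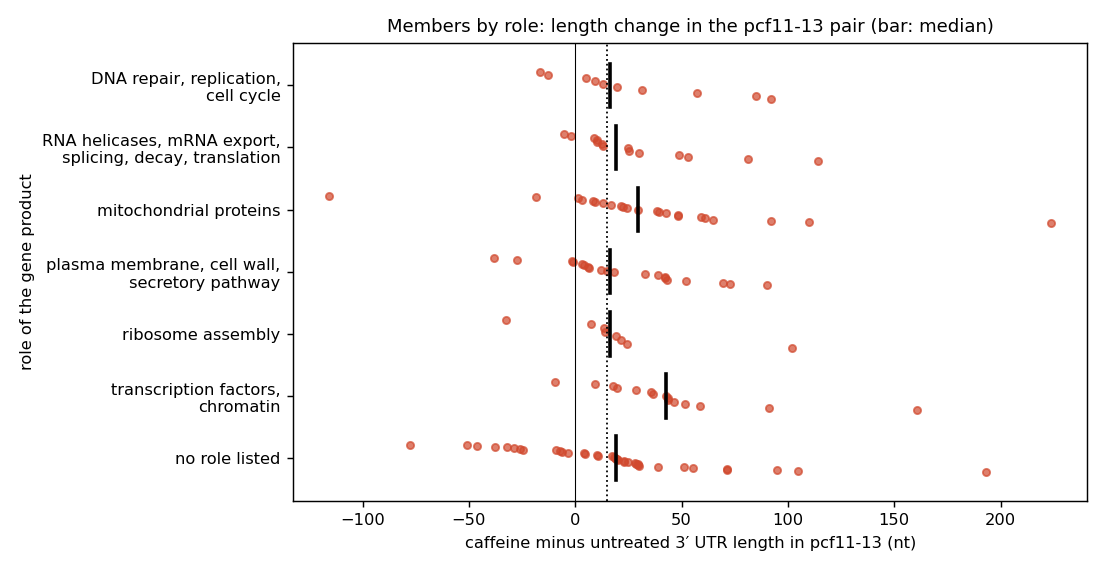
Length difference, caffeine minus untreated, in the pcf11-13 pair (x axis, nt) for each of the 128 genes by the role of its product (y axis). Each point is a gene, the black bar is the group's median and the dotted line marks 15 nt. Transcription and chromatin genes have the highest median, 42.8 nt, among groups drawn up after the genes were known.

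Some of the 128 genes carry a doubt of identity. YJR027W and YOR192C-B are Ty element reading frames with many copies, and YLR154C-G lies in the ribosomal DNA repeat. Q0255 is a reading frame of mitochondrial DNA, which RNA polymerase II does not transcribe and for which a 3′ UTR set by Pcf11 is not defined. It averaged 505 nt with caffeine and 488 nt untreated in pcf11-13, 510.5 and 371 nt in wild type of experiment 1, 482 and 351 nt in wild type of experiment 2, and 500.5 and 362 nt in pcf11-dNL.

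Untreated pcf11-13 cells already had long 3′ UTRs at many of the genes. Of the 128 genes, 57 (44.5%) were at least 15 nt longer in untreated pcf11-13 than in both untreated wild-type libraries, where 10.9% of the 3789 genes were. In 31 of the 57, untreated pcf11-13 reached the length of at least 1 caffeine-treated wild-type library, against 353 of the 357 other genes that were likewise long in untreated pcf11-13; wild type was selected to lengthen with caffeine in the 128 genes only. In experiment 1 the median difference, pcf11-13 minus wild type, was -7.11 nt with caffeine and 17.6 nt untreated for the 128 genes, against 5.96 nt and 0.88 nt for the other genes. The 57 genes had a median gain of 13.5 nt in pcf11-13, with 28 of them at least 15 nt longer, against 25 nt and 49 of 71 for the remaining genes. The same order was found over all 3789 genes, with a median of -2.84 nt (112 of 414 at least 15 nt longer) for those long in untreated pcf11-13 and 1.46 nt (462 of 3375) for the remaining genes, so that it was not particular to the 128. These values are a description: the untreated wild-type libraries entered the rule, and the gain and the starting length share the untreated pcf11-13 library.

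Averaged over both media, 2 of the 128 genes had 3′ UTRs longer in pcf11-13 than in wild type (limma adjusted p under 0.05), and none was called shorter, where 0.678% of all 5165 genes were called, 0.445% longer and 0.232% shorter. The wild-type libraries of this contrast also entered the rule, and the mutant allele cannot be told apart from mating type and the missing tags. SSL2 (YIL143C, chromosome IX, 80510 to 83041, minus strand), the TFIIH helicase that opens promoter DNA, averaged 349 nt with caffeine and 320.0 nt untreated in pcf11-13. In wild type it averaged 295 and 284 nt with caffeine and 260.5 and 247 nt untreated, and in pcf11-dNL 297 and 262 nt. Both pcf11-13 libraries thus lay above all 6 others, and the difference from wild type was 62.5 ± 5.31 nt (SE, limma adjusted p = 0.0317). TAX4 (YJL083W, chromosome X, 278841 to 280655, plus strand) averaged 272 nt with caffeine and 200.015 nt untreated in pcf11-13, against 209 and 218 nt with caffeine and 149.5 and 157 nt untreated in wild type. Within each medium pcf11-13 was the longest, with a difference of 52.3 ± 4.46 nt (SE, limma adjusted p = 0.0317). With the experiment as a replicate block TAX4 was no longer called (56.4 nt, adjusted p = 0.0703). Without untreated wild type of experiment 1, SSL2 had an adjusted p of 0.0689 and TAX4 0.0772, and leaving out any other library but untreated pcf11-13 also ended both calls.

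Over the 128 genes the sign of the median length difference between pcf11-13 and wild type depended on the experiment. It was -2.61 nt, against 2.61 nt over all genes tested, with wild type of both experiments, and 6.13 nt, against 2.83 nt, with the experiment as a replicate block. Without the block 38 genes had an unadjusted p under 0.05 (29.7%, where 20.0% of all genes had), 26 longer and 12 shorter. All 6 libraries of the pcf11-dNL contrast supplied the gains that chose the genes, so that its values are a description. No gene of the 128 was called in length there (0% of all genes were), and 9 had an unadjusted p under 0.05 (7.03%, where 3.85% of all genes had), all of them longer. The median difference of pcf11-dNL from wild type was 9.21 nt over the 128 genes and 2.04 nt over all genes, and 5.49 and 2.08 nt with the experiment as a replicate block.

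The level of these mRNAs was tested apart from their length. A level in CPM is a share of the library, so that less RNA per cell and more of other RNAs cannot be told apart. In pcf11-13 against wild type over both media, edgeR's quasi-likelihood test called 1 gene higher and 1 lower, where 3.09% of all 5849 genes were called, 2.44% higher and 0.65% lower. MRE11, the nuclease of the MRX complex in double-strand break repair, had 101.8 CPM with caffeine and 102.4 CPM untreated in pcf11-13, against 58.6 and 50.7 CPM with caffeine and 68.5 and 51.0 CPM untreated in wild type. Both pcf11-13 libraries lay above every other library (log2 fold change 0.85 ± 0.18, SE, edgeR adjusted p = 0.0453). GLO3, an Arf GTPase-activating protein of Golgi-to-ER transport, had 84.9 CPM with caffeine and 87.4 CPM untreated in pcf11-13, against 168 and 264 CPM with caffeine and 171 and 285 CPM untreated in wild type. GLO3 was thus lowest in pcf11-13 (log2 fold change -1.37 ± 0.29, SE, edgeR adjusted p = 0.0434), and its wild-type level differed between the experiments. With the experiment as a replicate block neither gene was called (MRE11 0.70, adjusted p = 0.203; GLO3 -0.98, adjusted p = 0.137). Leaving out any 1 library also ended both calls, for instance without untreated wild type of experiment 1 (adjusted p = 0.0783 and 0.0754). DESeq2 called 18 of the 128 genes in this contrast (14.1%), where it called 12.9% of all genes. Both genes also had longer 3′ UTRs in pcf11-13 than in wild type of experiment 1. Neither was called in length over both media, and a link between level and length was not tested. MRE11 averaged 484 nt with caffeine and 501 nt untreated there, against 297 and 253 nt in wild type of experiment 1, and GLO3 241 and 235 nt, against 214 and 159 nt.

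In pcf11-dNL no gene of the 128 was called in level (edgeR and DESeq2 both 0, where 0% of all genes were called by edgeR), and 6 had an unadjusted p under 0.05 (4.69%, where 2.79% of all genes had). For caffeine in pcf11-13 edgeR called 0 of the 128 genes (0% of all genes), with 14 at an unadjusted p under 0.05 (10.9%, where 12.0% of all genes had). DESeq2 gave an adjusted p for 30 of the 128 genes there and called 0 of them, where it called 4.91% of the 1447 genes with an adjusted p. The edgeR count changed when a caffeine-treated wild-type library was left out. The share of all genes called there is not given, so that nothing is read from it.

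In wild type the levels moved in both directions with caffeine, and more of the 128 genes were lower than higher. Since caffeine in wild type chose the genes, the following is a description. By edgeR's adjusted p, 9 of the 128 genes were higher and 35 lower, where 31.6% of all genes were called, 17.1% higher and 14.5% lower. The median log2 fold change was -0.236 over the 128 genes, against 0.019 over all genes tested. A log2 fold change above 0 was found in 43 of the 128 genes, where 50.9% of all genes tested had one. The number called among the 128 genes fell when a wild-type library of experiment 2 was left out. The share of all genes called there is not given. CCW14, a cell wall glycoprotein, had 846 and 789 CPM with caffeine and 287 and 231 CPM untreated. COX6 had 216 and 256 CPM with caffeine and 74.4 and 118 CPM untreated. Longer 3′ UTRs thus went with higher levels at these genes. The reverse held for PIC2, a mitochondrial carrier, with 81.5 and 75.014 CPM with caffeine and 254 and 547 CPM untreated, and for DBP2, with 265 and 210.4 CPM with caffeine and 746 and 1563 CPM untreated. PMA1 had 267 and 256 CPM with caffeine and 716 and 886 CPM untreated. On the log2 scale the other large differences were 0.96 for the kinase gene DBF20, 0.89 for SOR2, 0.88 for OSH7 and 0.88 for KGD1, an enzyme of the citric acid cycle, and -1.89 for YBR238C, -1.88 for STP4, -1.69 for YDR042C and -1.66 for the amino acid permease gene TAT1.

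The position of the genes differed from that of others in the orientation of the next gene. The nearest annotated gene downstream lay on the opposite strand, and so converged on it, for 89 of the 128 genes (69.5%), against 55.4% of the other genes. The distance to it had a median of 312.5 nt, against 294 nt. The mean wild-type 3′ UTR with caffeine reached the next gene in 41 of the 128 genes (32.0%), against 12.8% of the others. The same wild-type caffeine lengths chose the genes, so that nothing is read from this difference. Untreated, it reached the next gene in 23 (17.97%), against 15.3%. Of the 41 genes, 38 ran into a convergent gene and 3 into a gene of the same strand. How reads past the start of a downstream gene on the same strand were assigned is not given in the sources used here, and such an assignment limits how long a 3′ UTR can be measured there. Levels of the convergent neighbours moved little: over the 71 of them in the count table, the median difference of log2(CPM + 1) with caffeine was 0.17 and 0.16 in wild type of experiments 1 and 2, 0.16 in pcf11-dNL and -0.02 in pcf11-13, against -0.005, -0.02, -0.04 and -0.004 for the neighbours of the other genes. Over the 31 tandem neighbours the medians in the same order were 0.18, -0.385, -0.24 and -0.06, against -0.04, -0.04, -0.09 and -0.03. Their sign thus differed between the wild-type experiments.

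Genes for the 3′ end machinery itself were looked up as a list. Of 28 genes for cleavage, polyadenylation and termination factors, 22 passed the count and length limits and 0 belonged to the group, where 3.38% of all genes past the limits did, a share too small for a list of this size to fall below. Their median differences with caffeine were -9.78, -12.6 and -17.3 nt in the 3 choosing pairs and 0.60 nt in pcf11-13, where 3 of the 22 were at least 15 nt longer and 2 at least 15 nt shorter, near the shares of 15.1% and 9.42% over all genes. PCF11 itself averaged 186 nt with caffeine and 189 nt untreated in pcf11-13, and 175 to 189 nt in the other 6 libraries. A list of 15 genes for PUF and other RNA-binding proteins and deadenylases, which does not hold the decapping factor DHH1 named above, had 11 past the limits and 0 in the group (3.38% of all genes), with a median difference of 1.22 nt in pcf11-13. In limma and edgeR, for caffeine in pcf11-13, none of the genes of either list was called in length or level. There 0% of all genes were called in either measure, so that no list could have held a call.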

How the data were processed

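Direct RNA Sequencing libraries of 8 cultures were used. Of the deposited tables, each over 5933 genes, 2 were used: the authors' expected counts per gene, not normalized (9.72% whole within 1e-06), and their average 3′ UTR length in nt, per the file headers. That lengths run from the stop codon is read from the header's name. The submitters' processing notes name sacCer3 as the build. The aligner, the read counting and the strand setting were not given in the sources used here. Both deposited fractions (truncated reads, ProPrx) were read but enter no result. Whole numbers, rounded from the deposited counts, went into edgeR 4.0.16 (TMM, filterByExpr, 5849 genes). Lengths were tested with limma 3.58.1 over 5165 genes (minimum 20 counts in each library) (R 4.3.3). Both used Benjamini-Hochberg adjustment at 0.05. Caffeine effects came from 6 group means, mutant effects from genotype plus medium. The scripts were tested on simulated data. DESeq2 1.42.0, other scalings, filters, a replicate block and leaving out each library were tried. Gains were taken within an experiment number, because the labels name a shared experiment. The main edgeR and limma fits left the experiment out, and it entered only as the replicate block among the alternatives. Same-numbered wild-type deviations correlated at 0.195 (log2 CPM) and 0.354 (length), so that the main fits ignore this pairing. The genes, lists and tests were chosen with earlier results of these data known. The genes named in the text are the 10 with the largest smallest gain, the 5 largest and 5 lowest in pcf11-13, those called in a test and those nearest the limit; role examples were added after seeing values. Of the gene identifiers 5919 matched the RefSeq annotation (R64) and 14 did not; 5 genes had no length.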

Additional observations from a re-analysis of the deposited data

Results flagged for a closer look

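Of the 128 genes, 24 had a shorter 3′ UTR with caffeine in pcf11-13 and a longer one in the 3 other pairs; the direction in those pairs was fixed by the choice of the genes, and the difference between pcf11-13 and the other pairs was not tested. The 5 with the largest loss in pcf11-13 were AEP2 (-115.6 nt), ECM9 (-77.6 nt), ESL1 (-51.04 nt), UFO1 (-46.36 nt) and SRP68 (-38.3 nt). ECM9 averaged 140.1 nt with caffeine and 218 nt untreated in pcf11-13, against 151 and 128 nt in wild type of experiment 1. ESL1 averaged 101 nt with caffeine and 152 nt untreated in pcf11-13, against 124 and 95.7 nt. UFO1, an F-box protein of ubiquitin ligases, averaged 124 nt with caffeine and 170.3 nt untreated in pcf11-13, against 163 and 107 nt. SRP68, a subunit of the signal recognition particle, averaged 133 nt with caffeine and 171 nt untreated in pcf11-13, against 115 and 86.6 nt. In each of the 5 genes the untreated pcf11-13 library was longer than untreated wild type of experiment 1. The 5 were picked for their loss against that untreated pcf11-13 library, and the rule favoured a short untreated wild type. Nothing is read from this order. None of the 5 passed limma's test in pcf11-13 (adjusted p of 0.546 for SRP68 to 0.934 for ESL1).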

How the results depend on the processing

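The number of genes was 128, but 66 with a minimum of 100 counts, and 154 to 201 when a pair was left out of the rule (201 without wild type of experiment 1), an alternative added after seeing the data. The share past the same gain in pcf11-13, 60.2%, lay between 51.7% (rule and gain at 25 nt) and 65.4% (no upper limit on length) under the alternatives that gave a share. Genes longer or shorter in pcf11-13 over both media numbered 2, but 0 with array weights and 0 to 6 when a library was left out. With the experiment as a replicate block SSL2 stayed called in length, and the count for expression in pcf11-13 fell from 2 to 0; it was 18 with DESeq2 and 0 to 1 when a library was left out. Expression calls for caffeine in pcf11-13 were 0 to 2 without single libraries, and those in wild type 20 to 44. With log2 lengths SSL2 had an adjusted p of 0.0515. The median length difference between pcf11-13 and wild type over the 128 genes changed sign, from -2.61 nt to 6.13 nt with the replicate block. No other result run under these alternatives reversed. Each mutant has 1 library per medium, so that for caffeine in a mutant the spread was taken from the wild-type groups.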
